A study of Mus musculus with 6 samples.

Results

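Long non-coding RNAs that stay in the nucleus or come from imprinted loci were measured in small extracellular vesicles (sEV) released by mouse neurons in culture. Small extracellular vesicles are membrane-bound particles that carry RNA and protein out of the cell. The 7 genes Malat1, Neat1, Meg3, Rian, Mirg, Miat and Kcnq1ot1 were taken by symbol from the 53379 Ensembl genes listed, and 7 of 7 were present and tested. HypEV, 3 libraries, came from neurons that the labels give as OGD/R, without spelling it out, and that the series text calls hypoxic. NorEV, 3 libraries, came from neurons labelled control, called normoxic there. All 6 libraries come from wild-type embryonic cortical neurons in primary culture, and neither the embryos' age nor any pooling is stated in what was used here. The comparison asks how the vesicle RNA of the treated neurons differs from that of the controls. Whether the 3 libraries of a group came from different cultures is not stated, so every p-value below reflects library-to-library spread that could be technical alone.

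These RNAs are best known from inside the nucleus. Malat1 sits in nuclear speckles, the bodies that store splicing factors, and Neat1 is the scaffold of paraspeckles, which hold RNA-binding proteins such as SFPQ and NONO. Miat, also called Gomafu, forms its own nuclear foci in neurons and binds splicing factors. Meg3, Rian and Mirg are transcribed from the maternal chromosome in the imprinted Dlk1-Dio3 domain, where Rian hosts C/D box small nucleolar RNAs and Mirg hosts microRNAs. Kcnq1ot1 is transcribed from the paternal chromosome, antisense to Kcnq1, and silences the neighbouring genes of its domain.

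Levels are in FPKM, a count divided by gene length and by the library's counted fragments. Read from the smallest steps between values, libraries held 1320916 to 2141611 such fragments in HypEV and 1092724 to 1494499 in NorEV. A family of short near-identical entries around Gm23935 took 1.97 to 49.6% of these fragments in HypEV and 0.303 to 4.34% in NorEV. FPKM divides by the total, so this share lowers all other values. The median log2 fold change of the 44125 tested genes was -0.44. With FPKM rescaled to reads outside that family it was still -0.12, over the 44536 genes tested there. Neuronal markers were listed in all libraries (median of 14 genes 4.55 to 8.96 FPKM in HypEV and 6.04 to 10.6 in NorEV), but astrocyte markers had similar medians (4.53 to 11.2 in HypEV and 8.64 to 8.94 in NorEV), as had microglial markers (4.94 to 8.49 and 7.58 to 9.10), and the 1134 olfactory receptor genes had 0.934 to 2.74 in HypEV and 2.39 to 2.84 in NorEV. Oligodendrocyte lineage markers had lower medians (2.74 to 5.68 in HypEV and 3.12 to 4.67 in NorEV), and those of neurons overlapped the astrocyte and microglial ones. Endothelial and mural markers reached higher (5.77 to 12.99 in HypEV and 6.49 to 13.17 in NorEV). Progenitor markers had 5.27 to 8.49 and 7.89 to 10.25, and erythroid markers 2.51 to 6.97 and 1.95 to 11.93. The median of all genes with a transcript of at least 1000 bases was 3.01 to 7.16 in HypEV and 5.76 to 7.09 in NorEV. Tmem119, Olig1, Olig2, Sox10, Cldn5, Hba-a1, Hba-a2 and Hbb-bs were at 0 in at least 1 library. The part of other cell types in the results was not tested.

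The Miat sequence shows what distinguishes Miat from the other members at the level of RNA. Miat (ENSMUSG00000097767, chromosome 5, 112213228 to 112229395, minus strand, GRCm38) carries repeats of UACUAAC, the branch point sequence that the splicing factor SF1 binds. The motif, searched as TACTAAC on the RNA strand, occurs 6 times in its longest transcript of 9163 bases. It occurs 0 times in Malat1, Meg3, Rian and Mirg, 1 time in Neat1 and 4 times in Kcnq1ot1, whose transcript is the longest. Of 4562 long non-coding transcripts of at least 1000 bases 6.20% hold the motif, and 1.6% hold it at a higher density than Miat. As many as 3 in a window of 300 bases are held by 0.0219%, which is Miat itself. The window of Miat with most copies lies in 1 exon at chr5:112217151-112217450 (GRCm38, minus strand, written 5′ to 3′ from GENCODE M21), with TACTAAC in capitals.
Miat: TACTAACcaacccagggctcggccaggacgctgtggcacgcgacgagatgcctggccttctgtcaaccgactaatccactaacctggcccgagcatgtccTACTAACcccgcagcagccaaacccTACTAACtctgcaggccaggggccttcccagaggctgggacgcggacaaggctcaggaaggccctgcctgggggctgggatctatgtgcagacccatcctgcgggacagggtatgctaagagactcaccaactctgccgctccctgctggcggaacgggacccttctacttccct

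All 7 long non-coding RNAs had reads in all 6 libraries, 31 to 1037 each. Having reads does not by itself set a gene apart from a typical gene of its library. Relative to the median of genes with a transcript of at least 1000 bases, Neat1 stood at 0.845 to 2.33 times and Kcnq1ot1 at 0.898 to 2.03 times. The other members stood above that median in every library. Together they held 0.120, 0.151 and 0.170% of the fragments counted on genes in HypEV 1, 2 and 3, against 0.213, 0.131 and 0.155% in NorEV 1, 2 and 3. The means were 0.147% ± 0.0254 in HypEV and 0.1665% ± 0.0420 in NorEV (SD, n = 3 each; exact permutation test, two-sided, p = 0.6). Over totals that omit Gm23935 and its copies the order of the means turned, to 0.206% ± 0.0452 in HypEV and 0.170% ± 0.0470 in NorEV (p = 0.3, exact permutation test), and it also turned without NorEV 1 (difference 0.00381 percentage points). With 3 libraries in each group 0.1 is the smallest p this test allows. In bulk libraries, fewer vesicles that carry an RNA and less of it per vesicle cannot be told apart.

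None of the 7 genes passed the test between HypEV and NorEV (limma, adjusted p under 0.05 over all tested genes; 0.0159% of tested genes passed). The lowest adjusted p was 0.776, for Miat, and 0 of 7 had an unadjusted p under 0.05, as against 6.76% of all tested genes. Rian and Malat1 had positive log2 fold changes and the other 5 negative ones, while 74.9% of all tested genes were below 0. The median log2 fold change was -0.10 over the 7 genes and -0.44 over all tested genes. Limma-voom on reads recovered from the values also called 0 of the 7, though it called 0.546% of the genes tested there, and with totals that omit Gm23935 and its copies it called 0 of the 7 and 0.142% of genes.

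**Figure D1:**
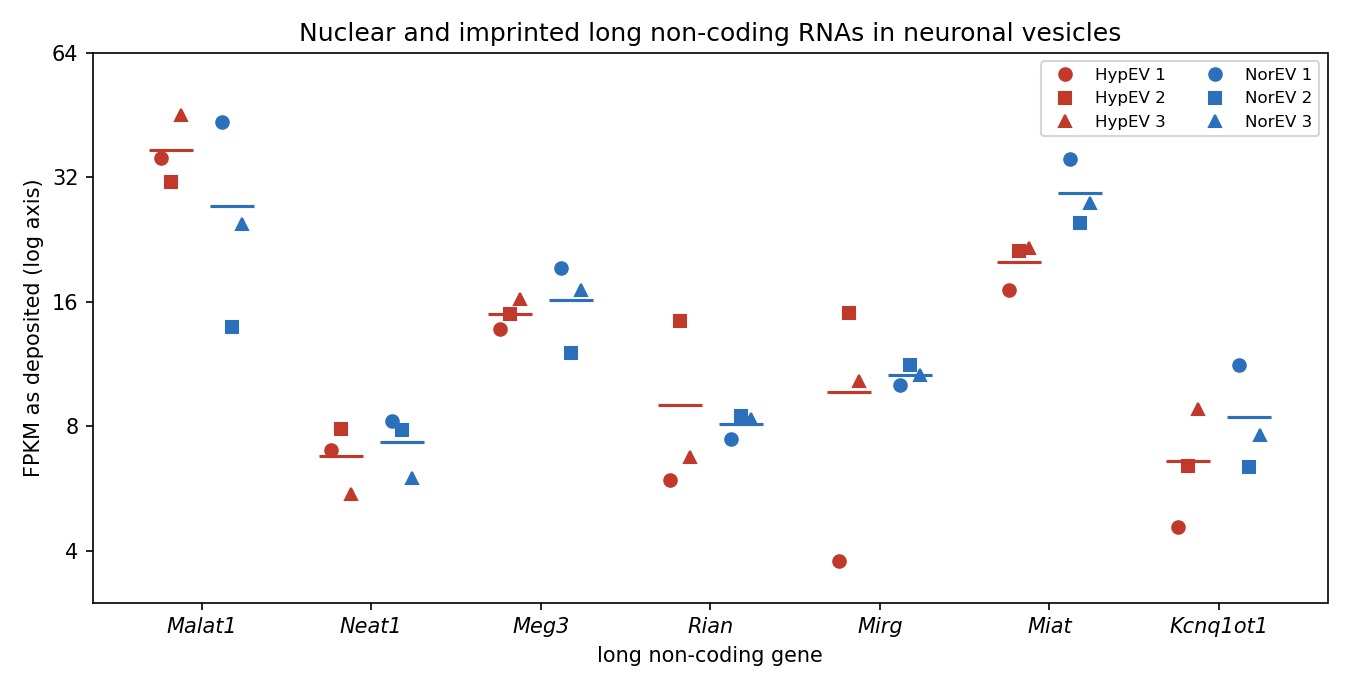
FPKM of the 7 long non-coding genes by library on a log axis, HypEV in red left of NorEV in blue; points are libraries and bars group means (n = 3 each). HypEV and NorEV overlap for each gene except Miat, whose HypEV libraries (17.1 to 21.6 FPKM) lie below those of NorEV (24.9 to 35.6).

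Malat1 (ENSMUSG00000092341, chromosome 19, 5795690 to 5802672, minus strand, longest transcript of 6983 bases, as long as its locus) was the most abundant member in HypEV. It had 35.6, 31.2 and 45.3 FPKM in HypEV, against 43.5, 13.9 and 24.6 FPKM in NorEV. The HypEV libraries lay close together, whereas NorEV ran from the second highest value of all to the lowest. The log2 fold change was 0.56 ± 0.48 SE (limma adjusted p = 0.798). The mean was 37.4 ± 7.22 FPKM in HypEV, against 27.3 ± 15 FPKM in NorEV (SD, n = 3 each). Leaving out NorEV 2 lowered it to 0.17, and leaving out NorEV 1 gave 0.96. Reads on Malat1 made up 0.00969% of NorEV 2 (95% Wilson interval 0.00820 to 0.0115) and 0.0304% of NorEV 1 (0.0273 to 0.0338), so these controls differ beyond counting error, which is all that such intervals cover.

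In each HypEV library Malat1 also stood higher than the other members among the genes of its library; in NorEV 2 and NorEV 3 Miat did. Among the 29006 genes with a transcript of at least 1000 bases it lay at percentile 97.8 to 99.5 in HypEV and 81.6 to 98.4 in NorEV. Its level per length was 4.36 to 11.8 times the median of those genes in HypEV and 2.21 to 7.56 times in NorEV. With FPKM rescaled to the reads outside the Gm23935 family its log2 fold change was 1.001, where the median of all tested genes was -0.12, and in limma-voom with those totals it was 1.04 (adjusted p = 0.102).

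Neat1 (ENSMUSG00000092274, chromosome 19, 5824708 to 5845478, minus strand), the neighbour of Malat1, was low in FPKM. It had 7.01, 7.89 and 5.50 FPKM in HypEV, against 8.24, 7.83 and 5.99 FPKM in NorEV. The groups overlapped almost fully (log2 fold change -0.10 ± 0.44 SE, limma adjusted p = 0.961), and its sign turned under other scalings. Neat1 lay at percentile 54.5 to 80.4 of the long genes in HypEV and 42.8 to 63.7 in NorEV, with HypEV 1 the highest. The short and long Neat1 transcripts share their start and are 1 entry here, so the paraspeckle-forming long one was not seen apart. The ratio of Malat1 to Neat1 in FPKM was 5.07, 3.95 and 8.23 in HypEV and 5.28, 1.77 and 4.11 in NorEV, so these neighbouring genes did not keep 1 ratio between libraries.

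Paraspeckle and speckle proteins showed no call either. Of 14 genes of paraspeckle proteins 4 were higher and 10 lower in HypEV, with 0 past the threshold and a median log2 fold change of -0.32. Cpsf6, a pre-mRNA cleavage factor subunit, had the smallest p at 6.51, 6.47 and 6.96 FPKM in HypEV, against 14.3, 10.2 and 11.1 FPKM in NorEV (limma log2 fold change -0.74 ± 0.41 SE, adjusted p = 0.741), and Smarca4, a chromatin remodelling ATPase, came next (-0.93 ± 0.58 SE, adjusted p = 0.757). Of 16 genes of nuclear speckle and splicing proteins 6 were higher and 10 lower, with 0 past the threshold and a median of -0.27. The splicing factors Srsf5 (-0.79 ± 0.43 SE, adjusted p = 0.739) and Sart1 (-0.70 ± 0.42 SE, adjusted p = 0.750) had the smallest p there.

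Miat was the only member whose groups did not overlap. It had 17.1, 21.3 and 21.6 FPKM in HypEV, against 35.6, 24.9 and 27.8 FPKM in NorEV. Each HypEV library lay below each NorEV library, as was so for 10.8% of all tested genes; 0 of the 7 were higher in HypEV without overlap, against 1.1% of tested genes. The mean was 20 ± 2.54 FPKM in HypEV, against 29.4 ± 5.52 FPKM in NorEV (SD, n = 3 each). The log2 fold change of -0.53 ± 0.37 SE (limma adjusted p = 0.776) was close to the median of all tested genes, with a difference of -0.08. With libraries centred on their medians it was -0.08. Within its libraries Miat ranked high and steadily, at percentile 92.7 to 97.1 of the long genes in HypEV and 94.1 to 97.6 in NorEV.

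The strand opposite Miat held reads as well. Gm26953, a long non-coding gene that overlaps Miat on the plus strand (chromosome 5, 112215461 to 112233720), had 17.9, 14.3 and 18.5 FPKM in HypEV, against 25.4, 35.3 and 33.7 FPKM in NorEV. Its HypEV libraries also lay below those of NorEV, as did 10.8% of tested genes (log2 fold change -0.85 ± 0.37 SE, limma adjusted p = 0.720). With libraries centred on their medians the log2 fold change was -0.40. Miat stood at 0.954, 1.49 and 1.17 times its antisense gene per length in HypEV and at 1.40, 0.705 and 0.826 times in NorEV. Entries on opposite strands carried counts of their own. Of 8 genes opposite an exon of a member 8 had reads in some library, against 1 of 29 in the same direction. Whether the kit kept strand is not stated, so reads of Miat and Gm26953 may still not be told apart. Gm26906, opposite the 3′ part of Meg3, had 3.04, 5.07 and 4.93 FPKM in HypEV, against 9.69, 1.73 and 14.7 FPKM in NorEV, with HypEV inside the wide range of NorEV (log2 fold change -0.55 ± 0.71 SE, limma adjusted p = 0.838). Its log2 fold change was -0.10 with centred libraries, -0.038 without NorEV 3 and -1.30 without NorEV 2. Gm37376, opposite Malat1, had no reads in HypEV and 10, 0 and 1 reads in NorEV.

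**Figure D2:**
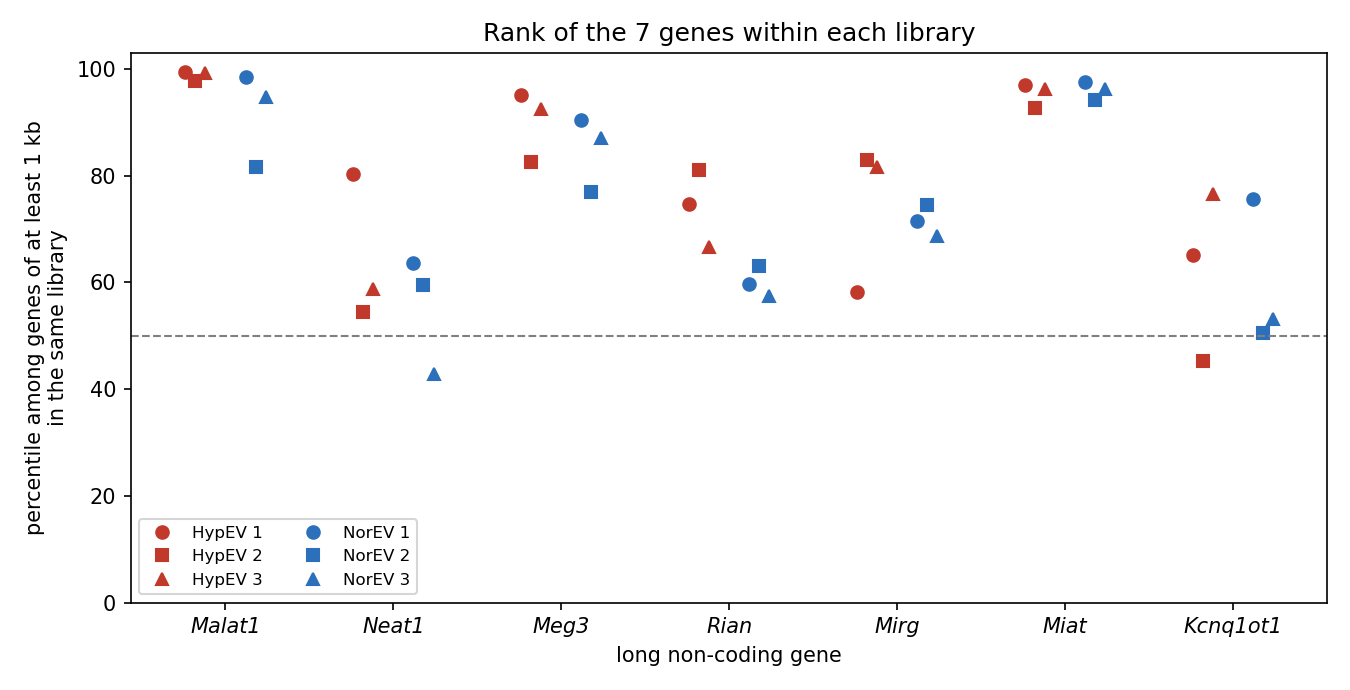
Percentile of each of the 7 genes among the 29006 genes with a transcript of at least 1000 bases, within each library; HypEV in red left of NorEV in blue, dashed line at the middle of the genes. Malat1, Miat and Meg3 lie above percentile 76 in every library, and Neat1 and Kcnq1ot1 reach down to 42.8 and 45.4.

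The imprinted genes of chromosome 12 differed in level, and none passed the test between the groups. With 3 libraries in each group this does not show that the groups are equal. Meg3 (ENSMUSG00000021268, 109541001 to 109571726, plus strand) had 13.8, 14.9 and 16.2 FPKM in HypEV, against 19.3, 12.1 and 17.1 FPKM in NorEV. The HypEV libraries fell inside the range of NorEV (log2 fold change -0.08 ± 0.39 SE, limma adjusted p = 0.964). Meg3 was the highest of the 3 imprinted members of the domain by mean in HypEV and in NorEV, though 1 HypEV library of Mirg reached its level. Rian (ENSMUSG00000097451, 109603940 to 109661716, plus strand) had 5.95, 14.4 and 6.74 FPKM in HypEV, against 7.47, 8.48 and 8.35 FPKM in NorEV. HypEV 2 alone lay above the controls (log2 fold change 0.05 ± 0.48 SE, adjusted p = 0.984), and without it the log2 fold change was -0.31. As a rank the picture was different: Rian lay at percentile 66.7 to 81.2 of the long genes in HypEV and 57.5 to 63.0 in NorEV, without overlap, as was so in that direction for 5.78% of the 26698 tested long genes.

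Mirg (ENSMUSG00000097391, 109729764 to 109749460, plus strand), with the fewest reads of the 7 genes, had 3.79, 15.0 and 10.3 FPKM in HypEV, against 10.1, 11.3 and 10.7 FPKM in NorEV. The controls differed little among themselves, while HypEV ran from the lowest to the highest value of the 6 libraries (log2 fold change -0.29 ± 0.53 SE, limma adjusted p = 0.892). HypEV 1, with the lowest value, was also the library with the largest share of Gm23935 family reads. Whether that share bears on the Mirg value was not tested. Without HypEV 1 the log2 fold change was 0.21. HypEV 1 rested on 31 reads on Mirg, or 0.00145% of its fragments (95% Wilson interval 0.00102 to 0.00205).

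Of 5 other listed genes of the Dlk1-Dio3 domain, 3 are given by library. Dlk1, a paternally expressed Notch pathway ligand, had 1.91, 15.6 and 6.02 FPKM in HypEV and 7.67, 6.54 and 8.05 FPKM in NorEV. Rtl1, a retrotransposon-derived gene that is also paternally expressed, had 3.60, 2.39 and 2.38 FPKM in HypEV and 3.45, 4.78 and 6.21 FPKM in NorEV (limma log2 fold change -0.61 ± 0.54 SE, adjusted p = 0.799). Dio3os, on the opposite strand of the thyroid hormone deiodinase gene Dio3, was listed at 0 in HypEV 1 and had 13.5 and 1.65 FPKM in HypEV 2 and 3, against 0.663, 8.20 and 9.21 in NorEV (adjusted p = 0.877). Of these genes together with Begain and Dio3, 1 of 5 was higher and 4 lower, with 0 past the threshold.

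Genes that overlap the members differed in whether they had reads by where they lie. Of 29 genes that overlap an exon of a member in the same direction, 28 had no reads in any library. Of 16 within introns 11 had reads in some library, and all 9 on the opposite strand did. Among those 9 are Kcnq1, which spans Kcnq1ot1, and Gm26953, which runs past the start of Miat. The exception was Mir382 in Mirg, with 2 reads in HypEV 3 and 3 in NorEV 3. A value of 0 in a shared exon was not read as absence of the short RNA. Of the 59 microRNA precursor genes on the plus strand of the domain, 14 had reads in at least 4 libraries. These are reads of a long-RNA library on short hairpin genes, so precursor, host RNA and other RNA of the region cannot be told apart. Between Meg3 and Rian, 10 of 13 precursor genes had reads, with 222 reads in HypEV and 364 in NorEV over 3 libraries each. Without Mir136 these were 99 reads in HypEV and 98 in NorEV, so the difference in raw reads lay in that gene. Such raw reads are not scaled to the libraries' totals, which differ between libraries. Between Rian and Mirg 22 of 26 had reads, 102 in HypEV and 107 in NorEV.

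The mature microRNAs of precursors that carried reads in most libraries are shown for Mir136, which held the most reads, and for Mir370, Mir1193 and Mir379, which share seeds (RefSeq, GRCm38.p6; bases 2 to 8, which pair with targets, in capitals, 5′ to 3′). Among the 13 of 14 precursors with a mature sequence, 4 seeds were shared, 2 of them between Mir3070a and Mir3070b. Mir370, in an intron of Rian, shares the seed of its 5p arm with the 3p arm of Mir1193, and Mir1193 shares its 5p seed with Mir379.
miR-136-5p: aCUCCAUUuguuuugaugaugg
miR-136-3p: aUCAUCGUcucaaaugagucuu
miR-370-3p: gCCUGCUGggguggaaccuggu
miR-370-5p: cAGGUCACgucucugcaguu
miR-1193-3p: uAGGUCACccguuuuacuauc
miR-1193-5p: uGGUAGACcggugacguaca
miR-379-5p: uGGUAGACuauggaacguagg

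Mir136, singled out after its values were seen, held the most reads of these precursor genes. Its gene of 62 bases (chromosome 12, 109595327 to 109595388, plus strand) lies opposite Rtl1, between Meg3 and Rian. It had 226, 558 and 525 FPKM in HypEV, on 30, 50 and 43 reads, against 989, 981 and 1220 FPKM in NorEV, on 67, 86 and 113 reads. Every HypEV library lay below every NorEV library, as was so for 10.8% of tested genes (log2 fold change -1.38 ± 0.77 SE, limma adjusted p = 0.741). Mir370 had 8, 7 and 13 reads in HypEV and 10, 2 and 4 in NorEV, with overlapping groups.

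**Figure D3:**
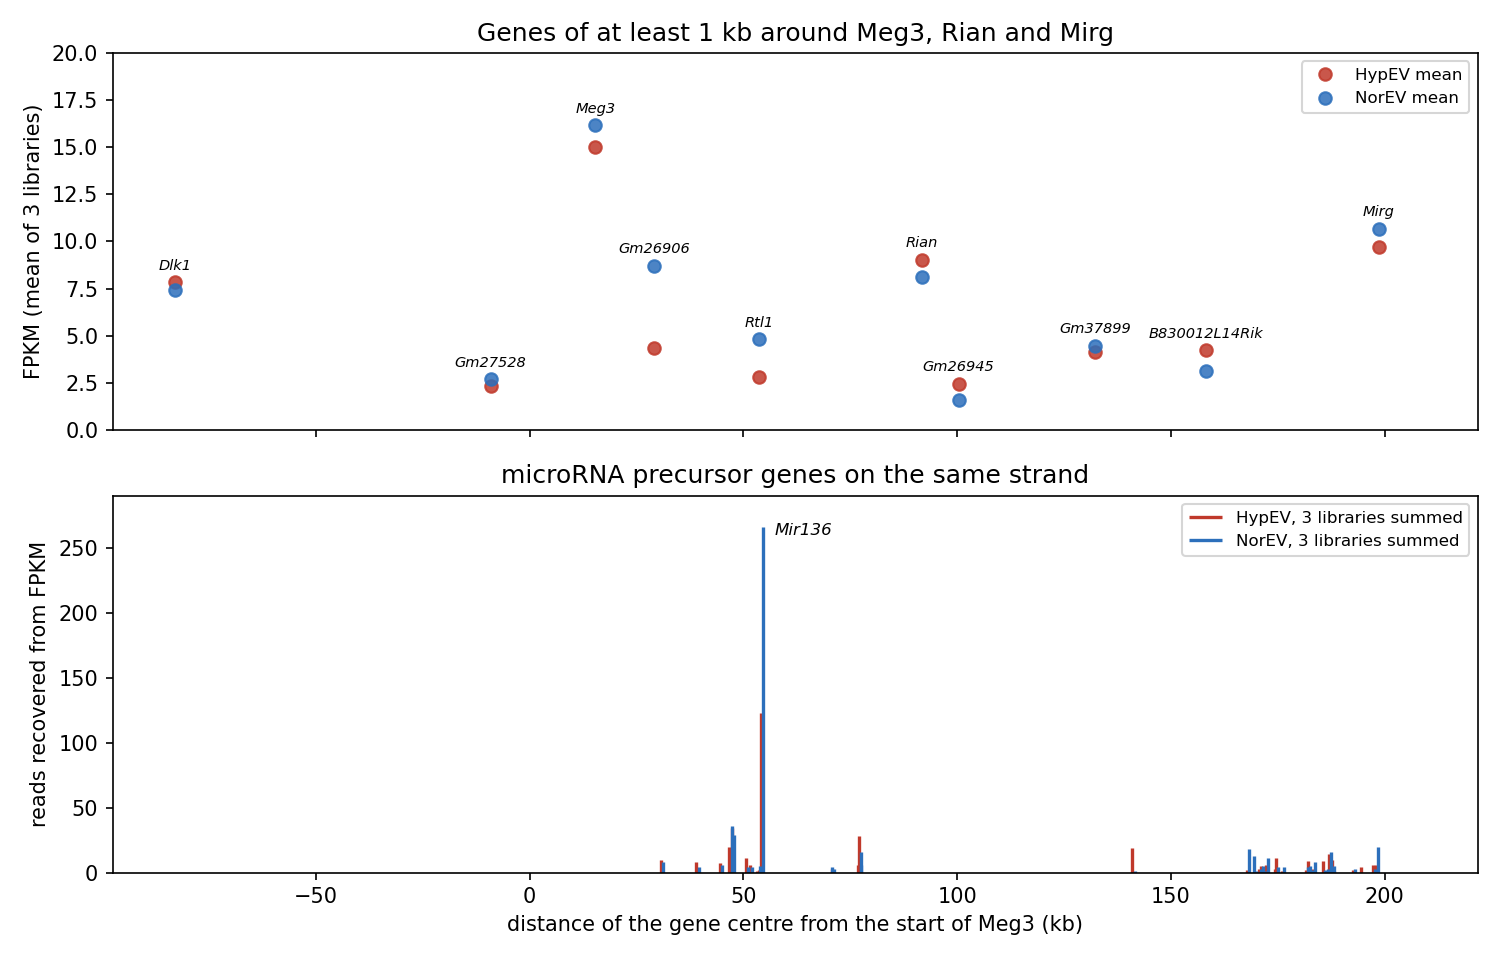
Genes around Meg3, Rian and Mirg by distance in kilobases from the start of Meg3: upper panel, mean FPKM of genes with a transcript of at least 1000 bases; lower panel, reads on microRNA precursor genes of the plus strand summed over 3 libraries, HypEV in red and NorEV in blue. Meg3 (15.0 FPKM in HypEV and 16.2 in NorEV) is the highest long gene, and Mir136 holds 123 reads in HypEV and 266 in NorEV.

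Kcnq1ot1 (ENSMUSG00000101609, chromosome 7, 143203458 to 143296549, minus strand) took the most reads of the 7 genes and, for its length, was among the lowest. It had 4.56, 6.43 and 8.80 FPKM in HypEV, against 11.2, 6.37 and 7.62 FPKM in NorEV. The groups overlapped, and NorEV 1 had the highest value (log2 fold change -0.31 ± 0.48 SE, limma adjusted p = 0.865). It was -0.11 without NorEV 1 or without HypEV 1, -0.52 without HypEV 3 and -0.47 without NorEV 2. Its values step as those of a gene of 84395 bases, not of the 93092 bases annotated in GENCODE M21, which gives 824, 784 and 981 reads in HypEV and 1037, 760 and 961 in NorEV. Kcnq1ot1 lay at percentile 45.4 to 76.6 of the long genes in HypEV and 50.6 to 75.6 in NorEV.

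None of the coding genes of the Kcnq1 domain passed the threshold. Of 10 tested genes 2 were higher and 8 lower in HypEV, near the 74.9% lower among all tested genes, with a median log2 fold change of -0.71. Kcnq1, a potassium channel subunit on the opposite strand of Kcnq1ot1, had 7.71, 10.1 and 9.50 FPKM in HypEV, against 12.99, 26.6 and 26.3 FPKM in NorEV. The groups did not overlap (log2 fold change -1.13 ± 0.44 SE, limma adjusted p = 0.720). Slc22a18, an imprinted transporter gene of the domain, had 3.91, 3.12 and 1.95 FPKM in HypEV, against 11.8, 10.5 and 18.5 FPKM in NorEV (limma log2 fold change -1.86 ± 0.49 SE, adjusted p = 0.573). The groups were apart here too, as was so for 10.8% of tested genes, and both genes had an unadjusted p under 0.05, as had 6.76% of tested genes. With libraries centred on their medians Kcnq1 was at -0.68. Cdkn1c, a cell cycle inhibitor that Kcnq1ot1 is known to silence, was picked out after its values were seen and was low throughout, at 1.23, 0 and 1.59 FPKM in HypEV, against 1.44, 1.86 and 4.22 FPKM in NorEV.

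**Figure D4:**
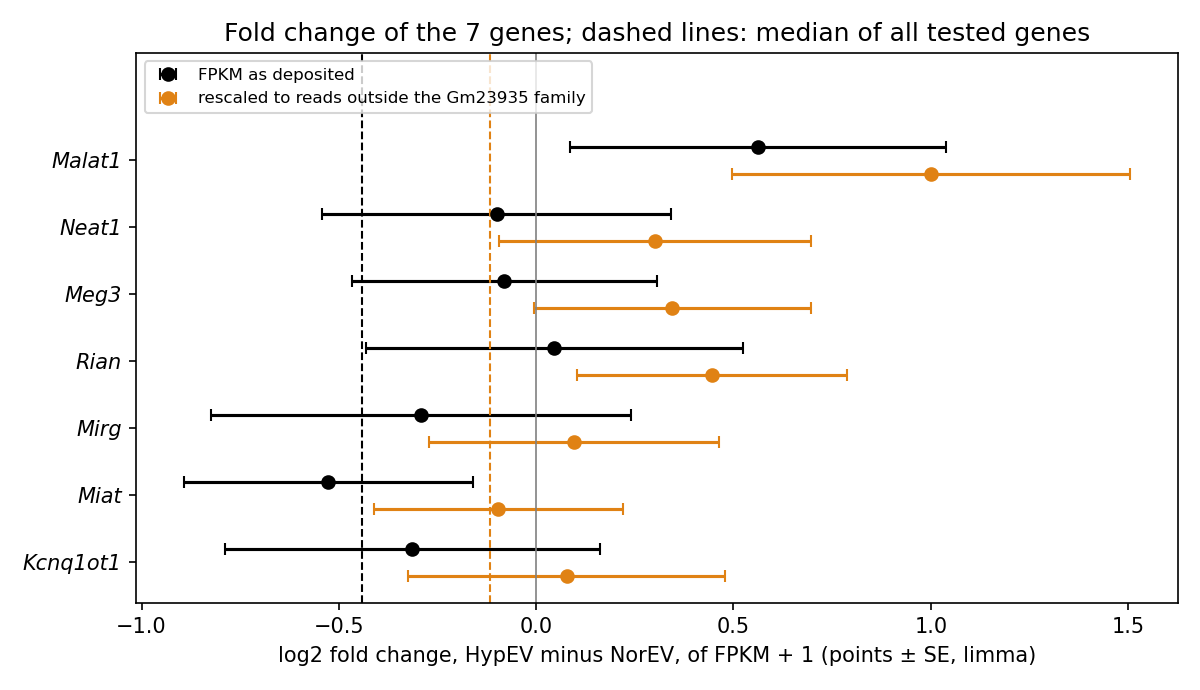
Log2 fold change (HypEV minus NorEV, of FPKM + 1) of the 7 genes with standard errors from limma, from FPKM as deposited (black) and rescaled to reads outside the Gm23935 family (orange); dashed lines are the medians of all tested genes, -0.44 and -0.12. Malat1 has the highest and Miat the lowest fold change on both scales (0.56 and -0.53 as deposited), and Neat1, Meg3, Mirg and Kcnq1ot1 change sign with the scaling.

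Ratios between members do not depend on the library total. Of the 21 ratios, computed after the values were seen, 3 did not overlap between the groups, each with p = 0.1 in an exact two-sided permutation test, the smallest possible (0.7 after Benjamini-Hochberg adjustment over the 21). Malat1 stood at 2.08, 1.47 and 2.09 times Miat in HypEV, against 1.22, 0.558 and 0.885 times in NorEV. It stood at 7.80, 4.86 and 5.15 times Kcnq1ot1 in HypEV, against 3.87, 2.18 and 3.23 times in NorEV. Both ratios were higher in each HypEV library than in each NorEV library, but 15.6% of the 27953 other genes above 0 in every library were likewise lower relative to Malat1 in HypEV without overlap, and 0.186% were higher. The third ratio was Meg3 to Miat, at 0.809, 0.701 and 0.750 in HypEV and 0.543, 0.485 and 0.615 in NorEV. For ratios to Miat the share over all genes was not computed, so this one has no background to be read against.

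By mean level the order was Malat1, Miat, Meg3, Mirg, Rian, Neat1, Kcnq1ot1 in HypEV and Miat, Malat1, Meg3, Mirg, Kcnq1ot1, Rian, Neat1 in NorEV. In HypEV the ranges of Malat1, Miat and Meg3 were apart from each other, and each later neighbour in the order overlapped the one before it. In NorEV neighbours overlapped except Meg3 (12.1 to 19.3 FPKM) and Mirg (10.1 to 11.3). Across the 6 libraries the members did not move as 1 group: Pearson correlations of log2(FPKM + 1), which share the libraries' totals, ran from -0.26 for Malat1 and Rian to 0.84 for Miat and Kcnq1ot1.

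The genes whose pattern over the 6 libraries was most like each member's were found among 5526 or 5527 genes with at least 10 FPKM on average and 10 reads in every library. For Malat1 this was Ltb4r1 (Pearson r = 0.99), for Neat1 Rpl3l (0.98), for Meg3 Park7 (0.99), for Rian Pelp1 (0.9966), for Mirg Pcid2 (0.9978) and for Miat Ogdhl (0.99, and 0.82 with libraries centred on their medians). Kcnq1ot1 was most like Slc16a1 (0.9987), Spef1 (0.9964) and Fam196b (0.99). With libraries centred on their medians r was 0.91 for Slc16a1, 0.96 for Spef1, 0.95 for Fam196b and 0.94 for Park7. It was 0.99 for Ltb4r1 and Pelp1 and 0.97 for Rpl3l and Pcid2. These genes were picked as the highest of 5526 or 5527 on only 6 libraries that share their totals. How high r would run for unrelated genes was not tested. The number of genes with r above 0.9 ran from 6 for Neat1 to 458 for Mirg.

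Other long non-coding and imprinted genes gave the background. Of 19 tested long non-coding genes 3 were higher and 16 lower in HypEV, with 0 past the threshold and a median log2 fold change of -0.38. Airn, the silencing RNA of the imprinted Igf2r domain, had 1.02, 10.6 and 1.65 FPKM in HypEV and 6.66, 17.5 and 12.2 FPKM in NorEV (limma log2 fold change -1.64 ± 0.74 SE, adjusted p = 0.720), and Rmst, a neural long non-coding RNA, had 6.46, 14.4 and 9.43 FPKM in HypEV and 12.98, 18.6 and 18.5 FPKM in NorEV (-0.72 ± 0.44 SE, adjusted p = 0.753). Of 19 tested imprinted coding genes 3 were higher and 16 lower, with a median of -0.46. Mkrn3 (-0.92 ± 0.67 SE, adjusted p = 0.784) and Mest (-0.74 ± 0.54 SE, adjusted p = 0.787) had the smallest p of those. Of 60 tested markers of neurons, glia, endothelial, erythroid and progenitor cells 14 were higher and 46 lower, and 0 passed. That is 76.7% lower, against 74.9% of all tested genes. Every list held higher genes: 3 of 14 neuronal, 1 of 8 astrocyte, 2 of 8 microglial and 4 of 9 oligodendrocyte lineage markers. So were 1 of 9 endothelial and mural, 2 of 6 erythroid and 1 of 6 progenitor markers. The genes named next were picked by p and do not stand for their lists. Among the smallest p of the marker lists were those for Eno2 and Tubb3 (neurons; log2 fold changes -0.80 and -0.71), Slc1a3 and S100b (astrocytes; -0.97 and -0.82), Trem2 and Cx3cr1 (microglia; -1.15 and -0.66), Olig2 and Pdgfra (oligodendrocyte lineage; -1.41 and -0.66), Kdr and Col1a2 (endothelial and mural cells; -1.47 and -1.24), Alas2 (erythroid cells; -1.55) and Top2a and Nes (progenitors; -0.83 and -0.56).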

How the data were processed

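RNA of vesicles was sequenced in 3 HypEV and 3 NorEV libraries. The labels' protocols name Trizol for the RNA and an Epibiotek long-RNA kit for the libraries. The authors deposited FPKM values, 1 table per library, and the table names mention HTSeq. Aligner, build and annotation are not given in the sources used here. With the longest transcripts of GENCODE M21 (GRCm38; 53274 of 53379 genes matched, 105 did not), 95.96% of non-zero values came out as whole reads (tolerance 0.01 reads), which gave the totals and reads. One read is worth 0.467 to 0.915 FPKM at 1 kilobase, and a count of 0 allows up to 3 reads.

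Values were taken as log2(FPKM + 1), which understates changes of low genes, and genes averaging 1 FPKM or more entered a two-sided test in limma 3.58.1 under R 4.3.3, with a variance trend and Benjamini-Hochberg adjustment over 44125 genes. Near-identical copies (over 90% alike over 80% of the length) were sought with blastn 2.17.0: none was found for the 7 genes. Mir136 matched the opposite-strand entries Mir3071 and Rtl1 at its own place. Python 3.11.15 ran the other steps (scipy 1.17.1, numpy 2.4.6, pandas 2.3.3; figures in matplotlib 3.10.9). The alternatives were other pseudocounts, filters and scalings, no trend, limma-voom, a replicate block and leaving out libraries. The 7 genes and the 13 other lists were chosen with earlier results of these data known. Besides the 7 genes, the rule named the 2 genes of smallest p in each list where none passed (1 marker gene is not reported here), genes overlapping the 7, and those most like them.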

Additional observations from a re-analysis of the deposited data

How the results depend on the processing

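Of the 7 long non-coding genes 0 passed in limma or limma-voom under each of the 16 alternatives run. The count over all tested genes (7) was 0 with a pseudocount of 0.1, without a filter, with libraries centred on their medians, without a variance trend and with the replicate block. It was 231 in limma-voom, 60 in limma-voom without the Gm23935 family in the totals (chosen after seeing the data), and 0 to 71 with 1 library left out (71 without HypEV 2). Equal replicate numbers showed no shared deviation (correlations 0.05, 0.10 and -0.06), so they were not taken as pairs, and the block changed no call on the 7 genes. The other lists had 0 genes past the threshold, and 1, Kdr, in limma-voom.

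The direction of the smaller fold changes depended on the scaling. With libraries centred on their medians the log2 fold change was 0.37 for Meg3, 0.35 for Neat1, 0.16 for Mirg and 0.14 for Kcnq1ot1. With FPKM rescaled outside the Gm23935 family it was 0.35, 0.30, 0.096 and 0.078, and in limma-voom with those totals 0.35, 0.34, 0.12 and 0.086, in the same order. Meg3 was at 0.053 without NorEV 1, Neat1 at 0.03 without HypEV 3, Mirg at 0.21 without HypEV 1, and Rian at -0.31 without HypEV 2 and -0.0057 without NorEV 1. Dio3os was at 0.20 without HypEV 1. With HypEV 1 and HypEV 3 left out together, chosen after seeing the data because they hold most Gm23935 reads, the lone HypEV library is assumed to vary like the others: 0 genes were called, and Mirg was at 0.46, Neat1 at 0.10, Dio3os at 1.43, Mest at 0.28, Mkrn3 at 0.17 and Pdgfra at 0.16. With these and single libraries left out, log2 fold changes ran between -0.27 and 0.053 for Meg3, -0.22 and 0.10 for Neat1, -0.67 and 0.46 for Mirg, -0.31 and 0.76 for Rian, -0.52 and -0.11 for Kcnq1ot1, -1.73 and 1.43 for Dio3os, -1.25 and 0.28 for Mest, -1.46 and 0.17 for Mkrn3, and -1.08 and 0.16 for Pdgfra. The difference in the share of reads on the 7 genes was 0.0356 percentage points outside the Gm23935 family, and -0.0370 (without NorEV 2) to 0.00381 (without NorEV 1) with 1 library left out. The cause was not tested. Malat1 stayed positive (0.17 to 1.04) and Miat negative (-0.64 to -0.08) under the alternatives run.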
